A study of Mus musculus with 20 samples.

Results

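The 10 chemokine genes described here are Ccl2, Ccl7, Ccl8, Ccl11, Ccl19, Cxcl1, Cxcl9, Cxcl10, Cxcl12 and Cx3cl1. They were chosen by name, as chemokines with a place in vascular inflammation, out of 42818 genes with a symbol of their own, and their level is the sum of the FPKM of their annotated transcripts. FPKM counts reads per length of transcript and per size of library, so levels of different genes can be set side by side per length of transcript. All 10 were among the 14998 genes that reached 1 FPKM in at least 5 libraries and were tested. RNA came from the abdominal aorta of C57BL/6 mice that were wild type or knockout for Rab22a, a small GTPase of endosomal membrane traffic, and its ribosomal RNA was removed before sequencing. Mice received saline or angiotensin II (AngII), a peptide hormone that constricts arteries, at 500 ng/kg/min, for 14 days in either case. The 4 groups, each of 5 libraries, are wild type with saline (WT+NS), wild type with AngII (WT+AngII), knockout with saline (KO+NS) and knockout with AngII (KO+AngII). The genotype is written Rab22 WT or Rab22a KO in the labels, which name no tissue-specific deletion. The series is titled for protection from hypertension by loss of Rab22a, through recycling of the AngII receptor AT1R.

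Chemokines are small secreted proteins that bind receptors coupled to G proteins on leukocytes and set the direction in which those cells move. The family is named by the spacing of the first pair of cysteines in the mature protein: adjacent in CC chemokines, 1 residue apart in CXC chemokines and 3 residues apart in the CX3C chemokine. In arteries under AngII they are best known for the recruitment of monocytes, and several are switched on through NF-kB, a transcription factor of inflammatory signalling, or through interferon. Others, such as Ccl19 and Cxcl12, are made without an inflammatory stimulus by stromal cells of lymphoid and other tissues.

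The cysteine spacing can be read in the coding sequence. The coding stretches around the first pair of cysteine codons in the annotated transcripts Ccl2-201 (CC), Cxcl12-203 (CXC) and Cx3cl1-201 (CX3C) are shown 5′ to 3′, with the cysteine codons in capitals, because this spacing sets the class under which each gene is described.
Ccl2: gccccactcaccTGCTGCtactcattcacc
Cxcl12: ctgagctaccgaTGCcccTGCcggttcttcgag
Cx3cl1: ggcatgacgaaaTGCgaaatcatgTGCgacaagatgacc
A pair of cysteine codons with the spacing of its class occurred once in the coding sequence of each of the 10 genes. The genes sit in a few places (GRCm38, mm10). Ccl2 (chr11:82035571-82037453), Ccl7 (chr11:82045712-82047525), Ccl11 (chr11:82057823-82062955) and Ccl8 (chr11:82115185-82116799) lie in a row on the plus strand of chromosome 11. Cxcl9 (chr5:92321347-92328079) and Cxcl10 (chr5:92346638-92348889) lie side by side on the minus strand of chromosome 5, which also carries Cxcl1 (chr5:90891241-90893115) on its plus strand. Ccl19 (chr4:42754525-42756577, minus strand), Cxcl12 (chr6:117168535-117181367, plus strand) and Cx3cl1 (chr8:94772009-94782427, plus strand) stand alone on theirs.

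Promoter sequence is shown for the inducible genes Cxcl10 and Cxcl1 and for Ccl19, because they were the members with a match to an interferon or NF-kB motif. RefSeq promoter entries (GRCm38.p6) were found for 7 of the 10 genes, all but Ccl2, Ccl7 and Ccl11, and the 250 bases before each start were searched on both strands. The motifs were the NF-kB consensus, the interferon element (TTTC, any 2 bases, TTTC), the gamma-activated element TTCNNNGAA and the AP-1 site TGANTCA, and on the sense strand alone the letters TATAAA. Capitals mark matches: in Cxcl10 (chr5:92348973-92349112, minus strand) the interferon element on the opposite strand and, further on, 2 overlapping NF-kB matches, in Cxcl1 (chr5:90891164-90891193, plus strand) an NF-kB match, and in Ccl19 (chr4:42756554-42756583, minus strand) the interferon element on the opposite strand.
Cxcl10: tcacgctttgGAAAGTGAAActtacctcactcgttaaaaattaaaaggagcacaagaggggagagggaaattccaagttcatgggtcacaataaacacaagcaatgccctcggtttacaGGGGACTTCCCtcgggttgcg
Cxcl1: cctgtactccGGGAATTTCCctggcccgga
Ccl19: ttttgggacaGAAAGTGAAAgctcaaggca
Cxcl10 also held the AP-1 letters, and Ccl8, Cxcl9 and Cx3cl1 held TATAAA. Among 32851 promoters of the same length, 5.00% held the NF-kB consensus, 2.98% the interferon element, 7.02% the gamma-activated element, 6.75% the AP-1 letters and 7.59% TATAAA on the sense strand. The RefSeq starts of Ccl19 and Cx3cl1 lie inside the gene spans given above, so the Ccl19 match and the TATAAA of Cx3cl1 are before the RefSeq start but within the annotated gene. A match is a description of the letters and says nothing of use.

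The values imply 68747800 to 77391474 reads per library, and a tested gene had a median of 1308 reads. Rab22a checked the labels: its main transcript stood at 1.87 to 8.62 FPKM in the 10 wild-type libraries and at 0 to 0.00563 FPKM in the 10 knockout libraries. The labels do not say that the libraries of a group came from separate mice, so p-values measure only the spread between these libraries, which may be technical. Markers of the vessel wall were present in all libraries, with 8 endothelial markers at a mean log2(FPKM + 1) of 4.98 to 5.54 and 7 smooth muscle markers at 6.73 to 8.64. Some other lists varied far more and some did not. From lowest to highest library the range was 8.44 for skeletal muscle, 5.12 for B cell and 4.54 for T and NK cell markers. It was 1.91 for smooth muscle, 1.52 for adventitial fibroblast and 1.36 for adipocyte markers. Skeletal muscle markers ran from 0.737 to 8.94 in WT+NS and from 0.497 to 8.74 in KO+NS. The mean log2(FPKM + 1) of 8 B cell genes was 3.18 to 5.19 in the wild-type libraries. In 5 knockout libraries (KO+NS replicates 2, 4 and 5, KO+AngII replicates 1 and 2) it was 0.502 to 1.80, and in the other 5 knockout libraries 3.13 to 5.62. No B cell, T cell or macrophage marker was at 0 in every library. These 5 libraries stand apart. Each difference between genotypes given for a single chemokine, except Ccl19 summed with its copies, is therefore followed by its value without them. All 5 are knockouts, chosen by B cell level after seeing the data. Such a value describes the libraries left and is no test of genotype.

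No chemokine of the 10 passed the test in any of the 7 comparisons. At an adjusted p under 0.05 (limma, Benjamini-Hochberg over all tested genes), 0 of 10 were called for AngII in wild type and for AngII in knockout, where 0% of all genes were called in either. The count was again 0 of 10 for knockout against wild type under saline (0.0133% of all genes called) and under AngII (1.83%). For genotype over both treatments it was 0 of 10 (4.15%), and for the interaction and for AngII over both genotypes 0 of 10 (0% in each). At an unadjusted p under 0.05, 2 of the 10 differed between genotypes under AngII, Ccl19 and Cxcl1, where 17.3% of all genes did. Over both treatments 1 did, Ccl19, against 20.2% of all genes. In the other 5 comparisons 0 of 10 did, against 3.05% of all genes for AngII in wild type, 3.97% for AngII in knockout, 7.36% between genotypes under saline, 3.35% for the interaction and 3.43% for AngII over both genotypes. Limma-voom on reads recovered from the FPKM also called 0 of 10 in each comparison. The smallest adjusted p of any member was 0.146, for Ccl19. These comparisons share libraries, so their values are not independent of each other.

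**Figure D1:**
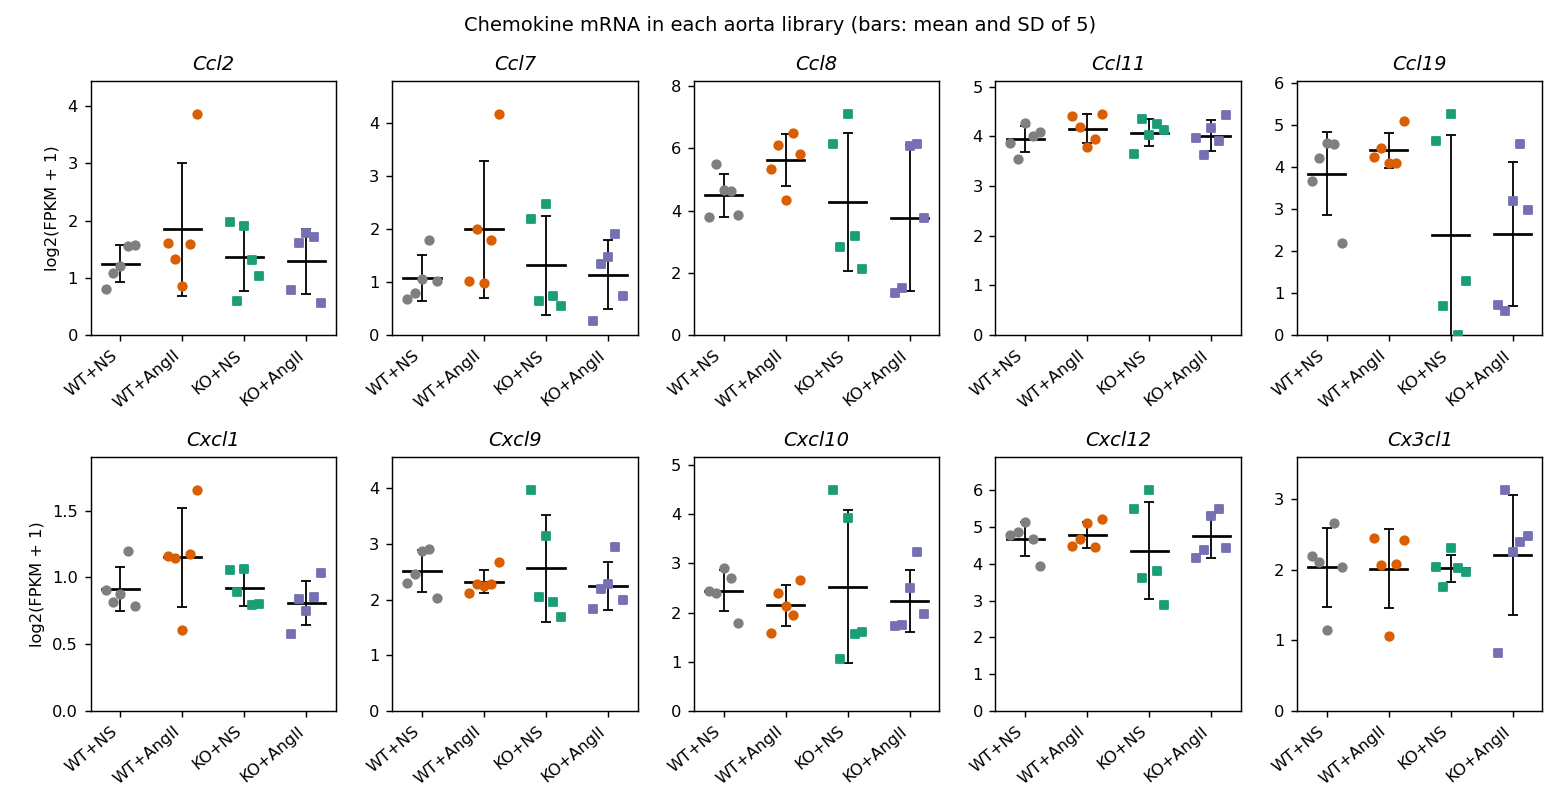
Level of each chemokine in each library, as log2(FPKM + 1) on the vertical axis, by group (circles, wild type; squares, knockout; bars, mean and SD of 5). Ccl8 and Ccl19 spread more widely in the knockout groups than in wild type. Ccl11 stays between 10.7 and 20.8 FPKM, and 1 WT+AngII library is the highest for Ccl2, Ccl7 and Cxcl1.

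The levels spanned a wide range. Median FPKM over the 20 libraries was 24.5 for Cxcl12, 24.1 for Ccl8, 16.0 for Ccl19 and 15.6 for Ccl11. A middle set held Cxcl9 at 3.85, Cxcl10 at 3.81 and Cx3cl1 at 3.27. The lowest medians were 1.73 for Ccl2, 1.06 for Ccl7 and 0.846 for Cxcl1, and the lowest count behind a value of these was 12 reads (Ccl7 in KO+AngII replicate 1). The coefficient of variation over the 20 libraries was lowest for Ccl11 (19.4%) and Cxcl1 (38.4%) and highest for Ccl2 (127%) and Ccl7 (155%), both of them with 1 library far above the rest. Within each gene the 4 groups were ranked by their means, which gave 30 neighbouring pairs of groups. In none of the 30 was the gap larger than the larger of the 2 SDs, and the ranges overlapped in all 30.

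Ccl2, the main ligand of the monocyte receptor Ccr2, was low in all groups but for 1 library. In WT+NS replicates 1 to 5 it was 0.748, 1.12, 1.31, 1.94 and 1.97 FPKM. In WT+AngII it was 2.06, 1.53, 0.809, 2.02 and 13.5 FPKM. The last of these was the highest of all libraries, while the other 4 lay within or just above the saline range. In the knockouts Ccl2 was 2.92, 0.515, 2.75, 1.47 and 1.04 FPKM with saline and 0.736, 2.04, 2.43, 2.28 and 0.468 FPKM with AngII, groups that overlap fully. The log2 difference for AngII in wild type was 0.61 ± 0.44 (SE, n = 5 against 5, 95% interval −0.31 to 1.53, limma adjusted p = 0.99993), and it was 0.11 without WT+AngII replicate 5. The interaction of AngII and genotype was −0.68 ± 0.62 (limma adjusted p = 0.995), or −0.18 without that library and −1.20 without the 5 libraries low in B cell markers (limma adjusted p = 0.469). Ccl2 overlaps Gm17268 on the opposite strand. The library kit named in the labels does not mark strand, so reads of such partners cannot be told apart.

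Ccl7, a second monocyte chemokine and the next gene along chromosome 11, had the largest coefficient of variation of the 10, with 1 library far above the others. It was 0.604, 0.736, 1.08, 2.48 and 1.03 FPKM in WT+NS and 1.03, 2.99, 0.981, 2.48 and 17.0 FPKM in WT+AngII. The same library as for Ccl2 was the highest. With saline the knockouts had 3.58, 0.551, 4.56, 0.672 and 0.467 FPKM, and with AngII 0.199, 1.53, 1.77, 2.73 and 0.667 FPKM. AngII in wild type gave a log2 difference of 0.92 ± 0.53 (SE, 95% interval −0.19 to 2.04, unadjusted p = 0.099 and adjusted p = 0.99993 in limma), and 0.38 without WT+AngII replicate 5. Knockout against wild type under AngII gave −0.85 ± 0.53 (limma adjusted p = 0.426), −0.31 without that library and −0.63 without the 5 low libraries. For the interaction the value was −1.10 ± 0.75 (limma adjusted p = 0.995), −0.56 without it and −1.89 without the 5 (limma adjusted p = 0.299). Over the 10 wild-type libraries Ccl2 and Ccl7 rose and fell together with a Spearman rho of 0.68. WT+AngII replicate 5 also had the highest level of the 10 macrophage and monocyte markers among wild-type libraries, a mean log2 of 6.03 and 2368 summed FPKM, against 4.19 to 5.21 in the other 9. The part of these markers in the Ccl2 and Ccl7 values was not tested.

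Ccl8, a CC chemokine made largely by tissue macrophages, had the largest AngII difference in wild type and a wide spread in the knockouts. It was 12.8, 44.2, 24.6, 23.7 and 13.6 FPKM in WT+NS and 39.8, 68.7, 19.2, 89.7 and 55.8 FPKM in WT+AngII. Replicate 3 of the AngII group lay below 3 of the saline libraries, so the groups overlap. In KO+NS it was 70.0, 6.15, 136, 8.09 and 3.32 FPKM and in KO+AngII 1.56, 1.82, 67.3, 69.9 and 12.7 FPKM. The 5 libraries low in B cell markers held the 5 lowest Ccl8 values, 1.56 to 8.09 FPKM, against 12.7 to 136 FPKM in the other 15. The knockout values left a gap elsewhere, between 12.7 FPKM in KO+AngII replicate 5, which is outside the low set, and 67.3 FPKM. Under AngII, 10 of 10 macrophage and monocyte markers had a lower level in the knockouts (median log2 −0.75, none called), and their part in the Ccl8 values was not tested. The log2 difference for AngII in wild type was 1.14 ± 1.01 (SE, 95% interval −0.97 to 3.25, unadjusted p = 0.273 and adjusted p = 0.99993 in limma). Knockout against wild type under AngII gave −1.85 ± 1.01 (95% interval −3.97 to 0.26, limma adjusted p = 0.357), which became −0.29 ± 0.60 without the 5 libraries (limma adjusted p = 0.865). Those libraries are all knockouts with the 5 lowest Ccl8 values, so leaving them out could only raise this difference. The interaction was −1.64 ± 1.42 (limma adjusted p = 0.995), and −2.43 ± 0.91 without the 5 libraries (limma adjusted p = 0.242).

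Ccl11, or eotaxin, attracts eosinophils through Ccr3 and was the steadiest of the 10. In WT+NS it was 13.6, 10.7, 18.2, 15.0 and 15.9 FPKM and in WT+AngII 20.2, 17.3, 12.9, 14.5 and 20.8 FPKM. KO+NS libraries had 11.4, 19.3, 15.4, 17.9 and 16.5 FPKM and KO+AngII libraries 14.6, 11.3, 17.0, 14.0 and 20.6 FPKM. All groups cover nearly the same range, and its interval was among the narrowest: the log2 difference for AngII in wild type was 0.21 ± 0.18 (SE, 95% interval −0.17 to 0.58, limma adjusted p = 0.99993). Its receptor Ccr3 was at 0.0325 to 0.693 FPKM and was not tested.

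Ccl19, a ligand of Ccr7 that guides T cells and dendritic cells in lymphoid tissue, differed most between the genotypes. It was 11.6, 17.6, 22.8, 22.2 and 3.58 FPKM in WT+NS and 17.8, 20.8, 16.0, 16.0 and 33.2 FPKM in WT+AngII. In KO+NS it was 23.5, 0.608, 37.1, 0 and 1.45 FPKM and in KO+AngII 0.655, 0.486, 8.15, 22.4 and 6.82 FPKM. The knockout libraries thus held both the highest value of all and the 5 lowest, and those 5 are again the libraries low in B cell markers, at 0 to 1.45 FPKM against 3.58 to 37.1 FPKM in the other 15. Knockout against wild type gave a log2 difference of −1.47 ± 0.93 under saline (SE, limma adjusted p = 0.778) and of −1.99 ± 0.93 under AngII (95% interval −3.94 to −0.04, unadjusted p = 0.0460 and adjusted p = 0.281 in limma). Over both treatments it was −1.73 ± 0.66 (unadjusted p = 0.0168 and adjusted p = 0.146 in limma). Without KO+NS replicate 3, the highest library, this last value was −2.09 and passed the test (limma adjusted p = 0.0447). Without the 5 low libraries it was 0.14 ± 0.38 (limma adjusted p = 0.858), under saline 1.10 ± 0.58 (0.270) and under AngII −0.82 ± 0.50 (0.482). Those libraries are all knockouts with the 5 lowest Ccl19 values, so leaving them out could only raise the difference. The sign under saline and over both treatments therefore rests on them. Under AngII the knockout values were lower for 8 of 8 B cell markers (median log2 −1.67), 11 of 11 T and NK cell markers (−1.83) and 8 of 8 lymph node stroma markers (−1.53), and also for 6 of 6 skeletal muscle markers (−1.53), with none called. The part of these cells in the Ccl19 difference was not tested, and in bulk RNA fewer cells of a type and less RNA per cell cannot be told apart. The lymph node stroma list holds Madcam1, Glycam1, Chst4, Cr2, Fcer2a, Cxcl13, Ccl21a and Ltb. Of these, Cr2, Fcer2a and Ltb are also made by lymphocytes, so the list is not a measure of stroma alone.

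Reads of Ccl19 are shared with near-identical genes, which makes its level uncertain. Gm2564 holds 526 of the 715 stretches of 31 bases in transcript Ccl19-201 (73.6%), Ccl19-ps3 294 (41.1%), Gm12407 237 and Ccl19-ps1 202, and no other member had a gene that shares 20% or more. A further gene named Ccl19 lies on the unplaced scaffold JH584294.1. Its transcript Ccl19-204 was at 17.3 to 36.8 FPKM in 5 wild-type libraries (WT+NS replicates 2, 3 and 4, WT+AngII replicates 4 and 5), 1.08 to 1.28 times the level of the chromosome 4 gene. It was listed at 0 in the other 15, among them all 10 knockouts. In 5 of those 15 the chromosome 4 gene was above its lowest level in the first set, up to 37.1 FPKM. With all copies summed the means were 38.3 ± 21.5 FPKM (SD, n = 5) in WT+NS, 44.3 ± 26.7 in WT+AngII, 18.3 ± 22.6 in KO+NS and 14.4 ± 15.8 in KO+AngII. The log2 difference of knockout against wild type over both treatments, in all 20 libraries, was then −1.96 ± 0.66 (limma adjusted p = 0.103). This sum was not fitted without the libraries low in B cell markers. Ccl19 also lies within 4930578G10Rik on the opposite strand.

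**Figure D2:**
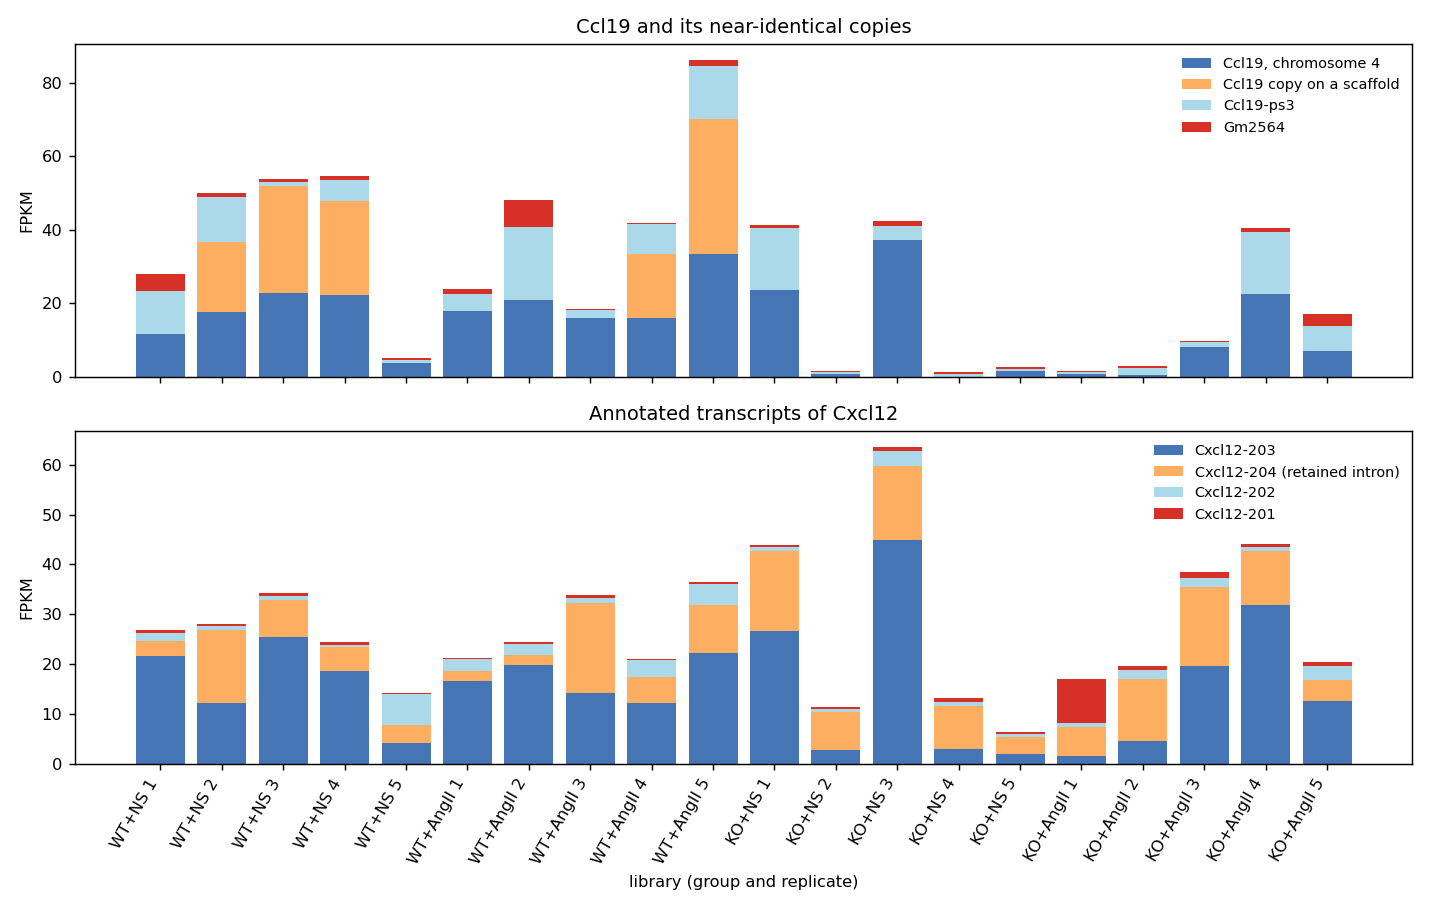
FPKM of Ccl19, its scaffold copy, Ccl19-ps3 and Gm2564 (top) and of the annotated transcripts of Cxcl12 (bottom), stacked per library. The scaffold copy of Ccl19 is above 0 in 5 wild-type libraries and in no knockout library, and Cxcl12-203 runs from 1.56 to 45.02 FPKM.

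Cxcl1, a neutrophil chemokine that acts through Cxcr2, was the lowest of the 10, with 40 to 182 reads per library. It was 0.872, 0.761, 0.835, 1.29 and 0.720 FPKM in WT+NS and 1.24, 1.22, 0.521, 1.26 and 2.15 FPKM in WT+AngII. In KO+NS it was 1.08, 0.857, 1.09, 0.737 and 0.739 FPKM and in KO+AngII 0.490, 0.788, 0.682, 0.806 and 1.05 FPKM. Of the 5 WT+AngII libraries 4 were above all 5 of KO+AngII and 1 was near the bottom. The log2 difference of knockout against wild type under AngII was −0.34 ± 0.16 (SE, 95% interval −0.67 to −0.01, unadjusted p = 0.0427 and adjusted p = 0.271 in limma), −0.21 without WT+AngII replicate 5 and −0.27 without the 5 low libraries (limma adjusted p = 0.549). For AngII in wild type it was 0.23 ± 0.16 (limma adjusted p = 0.99993), or 0.11 without that library. All 7 neutrophil markers had a positive difference for AngII in wild type (median log2 1.17) and none was called. Their part in the Cxcl1 values was not tested.

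Cxcl9 and Cxcl10, ligands of Cxcr3 induced by interferon, moved together. Cxcl9 was 3.92, 4.50, 6.32, 6.52 and 3.06 FPKM in WT+NS, and 3.37, 3.84, 3.72, 3.87 and 5.40 FPKM in WT+AngII. In KO+NS it was 14.7, 3.16, 7.79, 2.86 and 2.23 FPKM, and in KO+AngII 2.56, 3.55, 3.88, 6.69 and 2.96 FPKM. KO+NS replicates 1 and 3 were the highest of the 20. Cxcl10 was 4.44, 4.25, 6.50, 5.54 and 2.45 FPKM in WT+NS, 2.01, 4.24, 3.39, 2.88 and 5.34 FPKM in WT+AngII, 21.6, 1.07, 14.1, 1.97 and 2.05 FPKM in KO+NS, and 2.33, 2.34, 4.64, 8.44 and 2.91 FPKM in KO+AngII. The same 2 libraries led, and KO+AngII replicate 4 came next for both genes. The rho of the pair was 0.93 over the 10 wild-type libraries. AngII in wild type gave a log2 difference of −0.30 ± 0.53 for Cxcl10 (SE, 95% interval −1.42 to 0.82, limma adjusted p = 0.99993). AngII in knockout gave −0.31 ± 0.35 for Cxcl9 (95% interval −1.04 to 0.41, limma adjusted p = 0.990), which turned to 0.039 without KO+NS replicate 1. For genotype over both treatments Cxcl10 had 0.09 ± 0.38 (limma adjusted p = 0.924). Without the 5 libraries low in B cell markers it was 1.09 ± 0.24 and passed the test (limma adjusted p = 0.0491), with 2 libraries left in KO+NS and 3 in KO+AngII. The libraries left out are all knockouts, chosen by the level of markers that Cxcl10 itself followed. With library weights the value was −0.29, and without KO+NS replicates 1 and 3 together −0.47. Cxcl10 lies within Art3 on the opposite strand.

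Cxcl12, which holds and attracts Cxcr4-bearing cells and is made by stroma and vessel wall, was the most abundant of the 10 by its median. It was 26.8, 28.1, 34.3, 24.4 and 14.3 FPKM in WT+NS, and 21.3, 24.5, 33.8, 21.1 and 36.5 FPKM in WT+AngII. In KO+NS it was 44.0, 11.3, 63.7, 13.1 and 6.31 FPKM, and in KO+AngII 17.0, 19.6, 38.5, 44.1 and 20.5 FPKM. The group means lay close together, from 25.6 to 27.9 FPKM, while the SD was 25.0 FPKM in KO+NS and 7.31 in WT+NS. AngII in knockout gave a log2 difference of 0.39 ± 0.47 (SE, 95% interval −0.59 to 1.37, limma adjusted p = 0.990), and −0.68 ± 0.37 without the 5 libraries low in B cell markers (limma adjusted p = 0.339). Of the mean level 58.2% came from transcript Cxcl12-203, 31.3% from the retained-intron transcript Cxcl12-204, 6.94% from Cxcl12-202 and 3.59% from Cxcl12-201. Over the 10 wild-type libraries Cxcl12-203 had a rho of 0.68 to 0.75 with the B cell, T and NK cell and lymph node stroma markers, and Cxcl12-204 one of 0.04 to 0.36. Cxcl12-201 was at 8.91 FPKM in KO+AngII replicate 1 and at most at 1.17 FPKM in the other 19.

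Cx3cl1, or fractalkine, is made as a membrane-bound protein by endothelium and other cells and binds Cx3cr1. It was 3.60, 3.32, 1.21, 5.36 and 3.10 FPKM in WT+NS, and 4.45, 3.18, 1.09, 3.22 and 4.34 FPKM in WT+AngII. In KO+NS it was 3.10, 2.39, 3.95, 3.07 and 2.89 FPKM, and in KO+AngII 0.757, 7.76, 3.75, 4.24 and 4.55 FPKM. The highest and the lowest of all 20 were both in KO+AngII. Knockout against wild type under AngII gave a log2 difference of 0.20 ± 0.36 (SE, 95% interval −0.55 to 0.95, limma adjusted p = 0.815), which was −0.03 without KO+AngII replicate 2 and −0.04 without WT+AngII replicate 3. Without the 5 low libraries it was 0.36 ± 0.33 (limma adjusted p = 0.663).

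**Figure D3:**
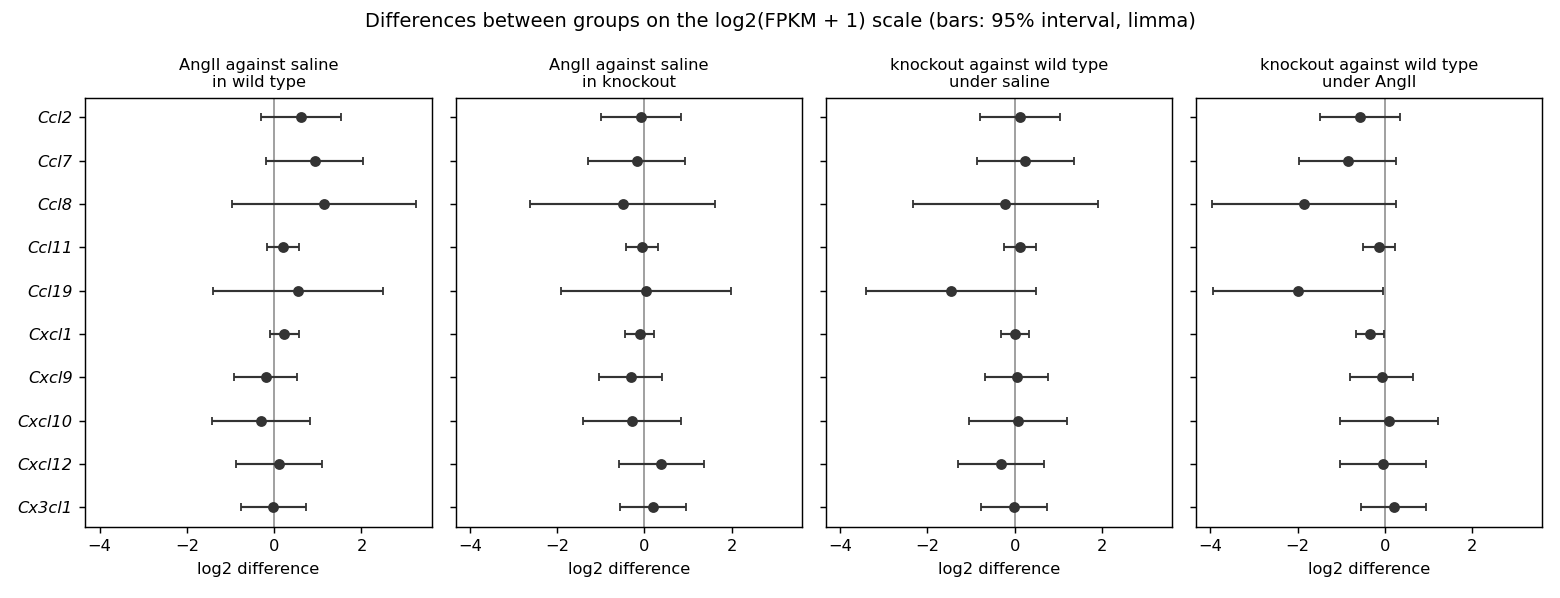
log2 difference of each chemokine in 4 comparisons with its 95% interval from limma (horizontal axis; the vertical line marks 0). The intervals that leave out 0 belong to Ccl19 and Cxcl1 for knockout against wild type under AngII, and neither passed the adjusted test.

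The differences of the 10 pointed both ways in each comparison. For AngII in wild type 7 of 10 differences were above 0 (median 0.22), where 53.6% of all tested genes were (median 0.02). In knockout 3 of 10 were (median −0.09), against 38.7% (median −0.06). Knockout against wild type had 6 of 10 above 0 under saline (median 0.03, against 42.9% and −0.04). Under AngII it had 2 of 10 (median −0.24, against 38% and −0.10), and 5 of 10 after quantile normalization or 4 of 10 after scaling in the manner of TMM, which moved the median of all genes to 0.03 and −0.01. The interaction was above 0 for 3 of 10 (41% of all genes) and the AngII difference over both genotypes for 8 of 10 (42.7%). For genotype over both treatments 2 of 10 were above 0, against 38.7%, and 4 of 10 under either other scaling (53.1% of all genes after quantile normalization and 50.4% in the manner of TMM). AngII in knockout went from 3 to 5 of 10 after quantile normalization, and the saline comparison of genotypes from 6 to 7 under either.

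The chemokines fell into sets by how they followed other cells' markers from library to library. Correlations are Spearman's rho of FPKM with the mean log2 of a marker list. They are given over the 15 libraries outside the low set, or over the 10 wild-type libraries, because the low libraries form a cluster of their own. The points share libraries, and lists of immune cells move together. Over the 15 libraries the rho with B cell markers was 0.86 for Ccl19, 0.87 for Cxcl9, 0.84 for Cxcl10 and 0.69 for Cxcl12. It was 0.68 for Ccl7, 0.48 for Ccl8, 0.45 for Ccl2 and 0.34 for Cxcl1. For Cx3cl1 it was −0.06 and for Ccl11 −0.25. With the macrophage and monocyte list the order was much the same, from 0.85 for Ccl19 down to 0.07 for Ccl11, and Ccl2 had 0.64 and Ccl8 0.64. Ccl8 followed neutrophil markers (0.77) more closely than B cell markers. Over the 15 libraries Ccl11 had its highest rho with adventitial fibroblast markers (0.54). In wild type it had 0.59 with that list and 0.60 with the macrophage and monocyte list. Within wild type alone the rho with B cell markers was 0.68 for Ccl19, 0.76 for Cxcl9 and 0.81 for Cxcl10, but 0.05 for Ccl8 and −0.07 for Ccl2. Some inverse values were about as large. Over the 15 libraries the rho with adipocyte markers was −0.80 for Cxcl10, −0.72 for Cxcl12, −0.71 for Cxcl9 and −0.59 for Ccl19. It was −0.34 to −0.21 for Ccl7, Ccl2 and Ccl8, 0.004 for Cxcl1 and Cx3cl1 and 0.12 for Ccl11. In wild type Cxcl10 had −0.87 with these markers. Smooth muscle markers also gave inverse values over the 15 libraries, −0.66 for Cxcl9 and Cxcl10, −0.59 for Cxcl12 and −0.56 for Ccl19. With that list Ccl7 had −0.46, Ccl8 and Ccl2 −0.36, Cxcl1 −0.17, Cx3cl1 0.08 and Ccl11 0.31. FPKM is relative to the size of the library, and the part of this in the correlations was not tested.

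**Figure D4:**
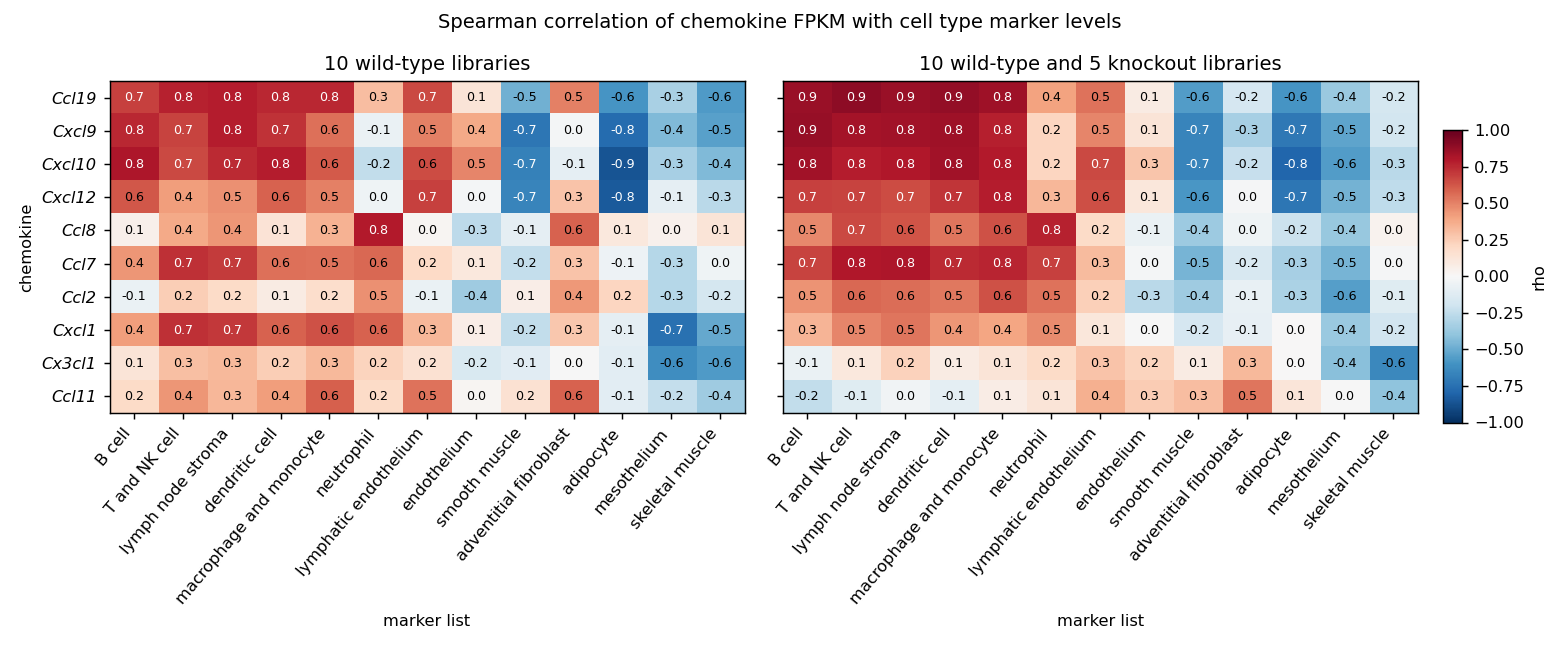
Spearman's rho of each chemokine (rows) with the mean level of each marker list (columns), over the 10 wild-type libraries (left) and over those and the 5 knockout libraries outside the low set (right). Ccl19, Cxcl9 and Cxcl10 follow the lymphoid lists in both panels, at 0.86, 0.87 and 0.84 with B cell markers on the right, where Ccl11 is at −0.25.

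**Figure D5:**
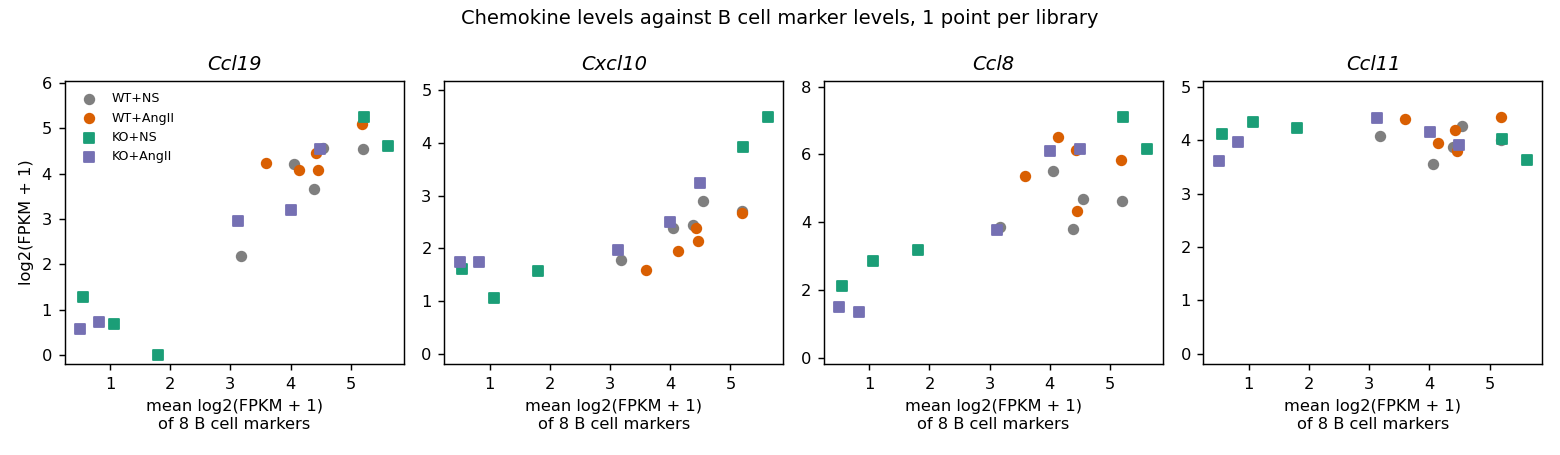
log2(FPKM + 1) of 4 chemokines (vertical axis) against the mean log2(FPKM + 1) of 8 B cell markers (horizontal axis), 1 point per library (circles, wild type; squares, knockout). The 5 knockout libraries at the left, at 1.80 or lower, hold the 5 lowest values of Ccl19 and Ccl8 and ordinary values of Ccl11.

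Each chemokine's closest companions among all tested genes were sought by rho over the 20 libraries. For Ccl19 they were D730005E14Rik (0.97), Rpl4 (0.96) and Vasp (0.96), and 642 genes had a rho above 0.9. Cxcl9 was closest to Mbnl3 (0.96), Ly75 (0.95) and Irf4 (0.95), with 203 such genes. For Cxcl10 the 3 were Cdc40 (0.95), Xrn2 (0.95) and Lpar2 (0.95), with 195. Cxcl12 was closest to Msr1 (0.95), Tmem26 (0.94) and 5830428M24Rik (0.94), with 39. Ccl8 was closest to Ms4a8a (0.96), Cd209b (0.94) and Ctse (0.94), with 15. The 3 of Ccl7 were Fcgr1 (0.92), Fcer1g (0.90) and Ccl12 (0.90), and those of Ccl2 were Gm10155 (0.85), Mydgf (0.85) and Lgals3 (0.83). Cxcl1 had Gins1 (0.85), Gm8394 (0.85) and Tmem138 (0.85). Ccl11 had Clec3b (0.88), Entpd2 (0.83) and Aldh1a3 (0.77), and Cx3cl1 had Tada2a (0.75), Dram1 (0.74) and S100a4 (0.72). Ccl2, Ccl11, Cxcl1 and Cx3cl1 had no gene above 0.9. For genes with many companions, the low libraries are among the 20 points. In wild type alone the rho was 0.89 for Ccl19 with D730005E14Rik, 0.93 for Cxcl9 with Mbnl3 and 0.89 for Ccl11 with Clec3b. It was lower for others, at 0.68 for Ccl8 with Cd209b, 0.67 for Ccl2 with Lgals3 and 0.36 for Cx3cl1 with S100a4. The wild-type libraries are among the 20 used to pick the companions, so these values are no separate check.

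Receptors of these ligands were measured in the same libraries. Ccr7 (0.135 to 38.9 FPKM) and Cxcr4 (2.59 to 63.5 FPKM) reached the highest levels, and the scavenging receptor Ackr3, which also binds Cxcl12, was steady at 11.5 to 23.9 FPKM. Ccr2 was at 1.65 to 7.15, Cxcr2 at 0.205 to 9.48, Cxcr3 at 0.338 to 20.05 and Cx3cr1 at 0.533 to 11.8 FPKM. Ccr8, a receptor of mouse Ccl8, was at 0 to 1.85 FPKM and was not tested. In the 10 wild-type libraries the rho of ligand and receptor was 0.88 for Cxcl10 and Cxcr3, 0.83 for Cxcl9 and Cxcr3, 0.83 for Ccl19 and Ccr7 and 0.55 for Cxcl12 and Cxcr4. For Cxcl1 and Cxcr2 it was also 0.55. It was 0.19 for Ccl7 and Ccr2, −0.10 for Ccl2 and Ccr2 and −0.05 for Cxcl12 and Ackr3. For Ccl8 and Ccr8 it was 0.39, for Cx3cl1 and Cx3cr1 0.36 and for Ccl11 and Ccr3 0.21. In wild type the closest pairs were thus those of Cxcr3 and Ccr7, and the pairs of Ccr2 were among the loosest. The knockout libraries, which include the 5 low ones, ranked the pairs otherwise. There the rho was 0.78 for Ccl7 and Ccr2 and 0.55 for Ccl2 and Ccr2. It was 0.85 for Cxcl10 and Cxcr3, 0.78 for Cxcl9 and Cxcr3 and 0.76 for Ccl19 and Ccr7. The highest was 0.87, for Ccl8 and Ccr8, and Cxcl12 and Cxcr4 had 0.83. For Cx3cl1 and Cx3cr1 it was 0.70, for Cxcl1 and Cxcr2 0.49, for Ccl11 and Ccr3 0.07 and for Cxcl12 and Ackr3 −0.35. For knockout against wild type under AngII, 0 of 14 tested receptors were called and 12 had a difference below 0 (median −0.35), which was 11 after quantile normalization. In the same comparison 9297 of all 14998 genes were below 0, and so were 10 of 10 macrophage and monocyte, 11 of 11 T and NK cell, 8 of 8 B cell and 8 of 8 lymph node stroma markers. The part of these cells in the lists of receptors, ligands and response genes was not tested. Ccr7 had the smallest p, at −2.10 ± 0.99 (SE, limma adjusted p = 0.284), and −0.70 ± 0.59 without the 5 low libraries.

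Ackr2 takes up inflammatory CC chemokines without signalling. It came nearest to the threshold among the 5 atypical receptors, of which 0 were called. It was 0.982, 2.26, 1.57, 1.72 and 1.40 FPKM in WT+AngII and 0.670, 0.632, 1.04, 0.862 and 0.108 FPKM in KO+AngII. Only WT+AngII replicate 1 lay within the knockout range. The log2 difference was −0.65 ± 0.17 (SE, n = 5 against 5, limma adjusted p = 0.0594), and −0.66 ± 0.22 without the 5 low libraries (limma adjusted p = 0.192). With library weights it was −0.68 and called (limma adjusted p = 0.0157). Ackr1 (0.358 to 4.98 FPKM) and Ackr4 (0.942 to 7.21 FPKM) had differences of −0.16 and 0.17 in that comparison.

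Of 29 other chemokine ligands 17 were tested and 0 were called in any comparison. For AngII in wild type 13 of 17 had a difference above 0 (median 0.39), as had 53.6% of all genes. So had 10 of 10 macrophage and monocyte markers (median 0.39), 7 of 7 neutrophil markers (1.17) and 10 of 11 T and NK cell markers (0.40), and their part was not tested. Ccl12, a monocyte chemokine of mice, had the smallest p: it was 1.48 ± 0.379 FPKM (SD, n = 5) in WT+NS and 5.12 ± 2.72 in WT+AngII, a log2 difference of 1.18 ± 0.51 (SE, unadjusted p = 0.0334 and adjusted p = 0.99993 in limma). For knockout against wild type under AngII, 15 of 17 were below 0 (median −0.43), also under both other scalings, where the marker lists named with the receptors were lower too. Cxcl13 and Ccl21a belong both to these ligands and to the lymph node stroma list. Ccl21b, a Ccr7 ligand, had the smallest p, at −1.15 ± 0.42 (limma adjusted p = 0.164). It was −0.52 ± 0.33 without the 5 low libraries (limma adjusted p = 0.497), and −0.92 and called with library weights (0.0481). Its near-identical copy Ccl21a was at 15.5 to 653 FPKM, and the share of each is uncertain.

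The lists for the pathways that induce chemokines hold components of these pathways, such as Tnfrsf1a, Rela and Ifngr1, as well as targets. Of 18 tested NF-kB and cytokine response genes 1 was called, in a comparison where 4.15% of all genes were. Nfkbia, which encodes the inhibitor that NF-kB itself switches on, was lower in knockouts over both treatments, with a log2 difference of −0.94 ± 0.24 (SE, limma adjusted p = 0.0381). Its means were 92.2 ± 23.3 FPKM (SD, n = 5) in WT+NS, 99.5 ± 23.0 in WT+AngII, 61.0 ± 37.7 in KO+NS and 47.8 ± 21.3 in KO+AngII. It was −0.28 ± 0.18 without the 5 low libraries (limma adjusted p = 0.393), and leaving out any of 15 single libraries also ended the call, at −0.85 to −0.97. It missed the threshold with quantile normalization (limma adjusted p = 0.0561) and limma-voom (0.0504), and was −1.25 without KO+NS replicates 1 and 3 together (0.00124). Under AngII alone it was −1.12 ± 0.35 (limma adjusted p = 0.0987), and 16 of the 18 genes of its list had a difference below 0 there (median −0.46), beside the 9297 of 14998 genes and the immune markers given with the receptors. Of 18 tested interferon gamma response genes 0 were called, and 13 were below 0 under AngII (median −0.35). Psmb8, an immunoproteasome subunit, had the smallest p under AngII, at 63.1 ± 15.7 FPKM (SD, n = 5) in WT+AngII and 21.5 ± 9.55 in KO+AngII, a log2 difference of −1.59 ± 0.43 (SE, limma adjusted p = 0.0609) and −1.27 ± 0.29 without the 5 low libraries (limma adjusted p = 0.0980). It passed after scaling in the manner of TMM (limma adjusted p = 0.0452), with a filter at 5 FPKM (0.0471) and with library weights (0.00721). Of the marker lists, Lum, a fibroblast gene, and Lep, an adipocyte gene, were called higher in knockouts over both treatments, at 0.67 ± 0.17 (limma adjusted p = 0.0328) and 1.04 ± 0.23 (0.0188). In that comparison 5 of 9 adventitial fibroblast markers were above 0 (median 0.04), and 1 of 6 adipocyte markers was (median −0.25). Neither gene therefore stands for its list.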

How the data were processed

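The authors deposited 1 table per library with an FPKM value for each transcript model. The unit is taken from the values themselves, which give whole reads once multiplied by transcript length for 99.4% to 99.5% of values (within 0.1 read). The build was mm10 and limma was among the tools, per the submitters' processing notes. For alignment, assembly and counting, the tool is not given in the sources used here. Of 126719 models, 109913 Ensembl transcripts matched GENCODE M21 and were summed per gene. The 16637 unannotated models, 10.6% to 12.9% of the FPKM, were left out. Because the library kit named in the labels does not mark strand, antisense partners share reads.

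Groups came from the labels. Limma 3.58.1 (R 4.3.3; lmFit, then eBayes with trend and robust) was fitted to log2(FPKM + 1) of 14998 genes at 1 FPKM or more in at least 5 libraries, with all 20 libraries and 7 comparisons. P-values were adjusted over all tested genes by the Benjamini-Hochberg method. A log2 difference on this scale understates the change of low genes. Intervals are 95% intervals from the fit. Markers, correlations and promoter motifs were computed in Python 3.11.15 (pandas 2.3.3, scipy 1.17.1). The fit was tested on simulated data. The members and gene lists were chosen with earlier results of these data known. Text names all 10 members, in other lists the genes past the threshold and otherwise those with the smallest p, the receptors and atypical binders of the members, and the 3 most alike genes per member. Alternatives were other scalings, pseudocounts (0.1), filters (none, 5 FPKM), transcript sets, library weights, a replicate block, limma-voom and leaving out libraries. Of these, 3 were chosen after seeing the data: genes summed by symbol, Ccl19 summed with its copies, and leaving out the 5 knockout libraries with a B cell level under 2.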

Additional observations from a re-analysis of the deposited data

Results flagged for a closer look

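In 6 of the 40 groups of 5 values (10 chemokines in 4 groups), the highest library stood far from the rest by Dixon's criterion, where the gap to the nearest library exceeds 0.71 of the range. The criterion flags about 1 in 20 groups of independent values with a normal spread. Here it was applied to FPKM without a log, and the groups share libraries, so 6 of 40 cannot be set against that rate. WT+AngII replicate 5 accounted for 4 of the 6. Ccl2 was 13.5 FPKM there against a next highest 2.06, and Ccl7 was 17.0 FPKM against 2.99. Ccl19 was 33.2 FPKM against 20.8, and Cxcl9 was 5.40 FPKM against 3.87. In WT+NS replicate 4, Ccl7 was 2.48 FPKM against 1.08 and Cxcl1 was 1.29 FPKM against 0.872. None of the 20 knockout groups of values was flagged. The gap runs from the highest library to the next, so a pair of high libraries in a group can hide each other. Ccl8 in KO+NS was such a group, with 136 and 70.0 FPKM in replicates 3 and 1 and 3.32 to 8.09 FPKM in the others.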

How the results depend on the processing

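Over 15 alternatives and the fits without 1 library, the count of 0 members called changed in few cases. Under saline, 1 member was called between genotypes with library weights (Ccl19, −3.08, limma adjusted p = 0.0225). Over both treatments, 1 was called with library weights (Ccl19, −2.30, adjusted p = 0.00189), 1 without KO+NS replicates 1 and 3 together (Ccl19, −2.58, 0.00378) and 1 without the 5 libraries low in B cell markers (Cxcl10, 1.09, 0.0491). That last fit left out knockouts alone, chosen by the level of markers that Cxcl10 itself followed, and is no test of genotype. Leaving out single libraries gave 0 to 1. Over all 70 pairs of member and comparison, 81 of 965 alternative values and 106 of 1000 values without a single library had the opposite sign. Among the differences given above, signs turned for Cxcl9 under AngII in knockout, at 0.14 with library weights, 0.35 without KO+NS replicates 1 and 3 together and −0.53 to 0.039 without single libraries. Cxcl12 there was −0.68 without the 5 low libraries, and Ccl19 was then 1.10 under saline and 0.14 over both treatments. Cx3cl1 between genotypes under AngII ran from −0.040 to 0.55 without single libraries. Cxcl10 over both treatments was −0.29 with library weights, −0.47 without KO+NS replicates 1 and 3 together and −0.16 to 0.27 without single libraries. The count of all genes called moved most between genotypes: 275 under AngII became 1913 with weights, 157 with limma-voom, 147 with coding transcripts alone, 1 with these groups fitted alone, 0 without the 5 low libraries and 9 to 483 without single libraries. Over both treatments 622 became 4041 with weights, 3038 without KO+NS replicates 1 and 3, 1173 with no filter, 367 with coding transcripts and 180 without the 5 low libraries, and under saline 2 became 1198 with weights. The cause of these moves was not tested, beyond the smaller number of libraries where some were left out. Same-numbered libraries did not deviate together: over 30 pairs r ran from −0.524 to 0.413, and 3 of 20 libraries correlated best with their own number. With the replicate block 0 members were called in all 7 comparisons, 70 genes were called between genotypes under AngII, and Nfkbia over both treatments missed the threshold (limma adjusted p = 0.0601). Low reads limit Ccl7, Ccl2 and Cxcl1, whose lowest libraries held 12, 29 and 40 reads.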
